A study of Mus musculus with 11 samples.

Results

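The Hes and Hey repressors measured here are 6 genes, Hes1, Hes5, Hes6, Hey1, Hey2 and Heyl, out of 24898 genes listed in at least 1 of the 4 expression tables of this series (18667 are in every table). They were taken by symbol, without reference to their levels, and all 6 were found at each age. The libraries were made from cells of the floor of the mouse cochlear duct, from wild-type CD1 animals at embryonic day 14 (E14, 2 libraries), E16 (3), postnatal day 1 (P1, 4) and P7 (2, numbered 4 and 5), and each library pooled the cochleae of several animals of a litter according to the methods. No group was treated or carried an engineered allele, so that the comparisons are between cell classes and ages. The 11 libraries hold 30634 cells in total, 1247 to 5598 per library, with medians of 2478 to 5647.5 unique molecular identifiers (UMIs, the tags that count captured transcripts) per cell.

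Each cell was placed in a class by lists of marker genes that hold none of the 6 genes. The classes used here are hair cells (HCs), which turn sound into nerve signals, with their inner (IHC) and outer (OHC) types; lateral prosensory cells (LPsCs), the progenitors of OHCs and of the supporting cells (SCs) around them, at E14 and E16; lateral SCs at P1 and P7, made up of Deiters' cells (DCs) and inner pillar cells (IPCs); inner phalangeal cells (IPhCs), the SCs around the IHCs; and Kölliker's organ (KO), the transient nonsensory epithelium medial to the sensory cells. E14 libraries gave 15 and 20 HCs, E16 libraries 162, 237 and 140, P1 libraries 220, 159, 223 and 433, and P7 libraries 116 and 133. Such a class is a range of a score rather than a discrete type. At P1, 5 cells lay within 0.2 of the HC limit against 1035 HCs, whereas at E14 the numbers were 20 and 35, and 5086 P1 cells lay that near to the KO limit against 3533 KO cells. For LPsCs the numbers were 134 and 214 at E14 and 302 and 287 at E16. They were 180 and 540 for P1 DCs, 290 and 249 for P1 IPCs, and 1301 and 504 for P7 KO. Atoh1, the transcription factor that starts HC differentiation, took no part in the gates, and its level was 912 ± 439 (SD, n = 2 libraries), 882 ± 424 (n = 3), 622 ± 158 (n = 4) and 20.7 ± 2.48 CPM (n = 2) in HCs of the 4 ages, against 0 to 8.56 CPM in any library of KO cells. CPM are the UMIs of a gene per 1000000 UMIs, as the mean of all cells that a library has in a class.

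Hes and Hey proteins are basic helix-loop-helix repressors, and Hes proteins recruit Groucho (Tle) co-repressors to DNA. Most are direct targets of the Notch pathway: a ligand of the Delta or Jagged family on a nascent HC activates Notch receptors on its neighbours, the released intracellular domain joins Rbpj and Mastermind at target promoters, and the resulting Hes and Hey proteins hold Atoh1 down, so that the neighbours stay prosensory or become SCs. Hes6 is the exception in the family, a factor that counteracts Hes1 and is commonly found in differentiating rather than in progenitor cells.

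The genes lie on 5 chromosomes of GRCm38 (GENCODE annotation), Hes1 on chromosome 16 (30064384 to 30067796), Hes5 and Heyl on chromosome 4 (154960923 to 154962371 and 123233556 to 123249875), Hes6 on chromosome 1 (91411483 to 91414038), Hey1 on chromosome 3 (8663359 to 8667256) and Hey2 on chromosome 10 (30832359 to 30842801). Promoter sequence was matched by symbol in RefSeq (GRCm38.p6) for Hes5, Hes6 and Hey2. These 3 are shown because sequence was matched for them, and at P1 they were the gene with the largest excess in lateral SCs over HCs, the gene with an HC excess and the gene with the lowest level in lateral SCs, respectively. Each reads 5′ to 3′ on the strand of its gene up to the base before the annotated gene. Capitals mark the letters TGGGAA or their reverse complement TTCCCA, the core recognised by Rbpj.
Hes5, chr4:154960673-154960922, plus strand: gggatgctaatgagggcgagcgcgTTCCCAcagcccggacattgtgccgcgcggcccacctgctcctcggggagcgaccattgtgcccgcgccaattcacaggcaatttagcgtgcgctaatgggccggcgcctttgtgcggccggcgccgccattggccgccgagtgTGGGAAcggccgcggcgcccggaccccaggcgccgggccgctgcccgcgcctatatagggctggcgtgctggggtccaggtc
Hes6, chr1:91414039-91414288, minus strand: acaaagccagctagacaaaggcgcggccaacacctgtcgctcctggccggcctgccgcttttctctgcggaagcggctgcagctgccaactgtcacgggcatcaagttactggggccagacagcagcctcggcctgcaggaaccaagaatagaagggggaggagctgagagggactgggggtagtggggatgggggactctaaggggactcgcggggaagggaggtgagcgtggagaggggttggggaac
Hey2, chr10:30842802-30843033, minus strand: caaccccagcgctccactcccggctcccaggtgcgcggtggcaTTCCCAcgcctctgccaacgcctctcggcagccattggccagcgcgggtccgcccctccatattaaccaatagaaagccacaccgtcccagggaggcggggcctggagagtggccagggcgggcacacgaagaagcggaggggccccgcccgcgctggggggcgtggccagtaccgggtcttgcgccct
The Hes5 window held 2 matches, 1 on each strand, at 226 to 221 and 82 to 77 bases before the start. The Hey2 window held 1, at 207 to 202 bases before its RefSeq start, and the Hes6 window held none. Of 32851 RefSeq windows of 250 bases before a start, 21.6% held at least 1 match on either strand, 2.77% held 2 or more and 1.28% held matches on both strands. A match of 6 letters describes the sequence and does not show that a factor binds there.

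Replicate 3 of E16 stood apart from the other E16 libraries, and this bears on Hes1 in particular. Over all of its cells Hes1 was at 2476 CPM against 170 and 176 CPM in replicates 1 and 2, the second largest of the differences among 8850 genes (3.76 in log2 against the mean of the other libraries). Hes5 (144 against 33.1 and 40.8 CPM), Hey1 (279 against 106 and 104 CPM) and Heyl (20.5 against 6.43 and 9.81 CPM) were higher there too. Hes6 was lower over all cells (147 against 272 and 218 CPM), but that library held fewer HCs for its size. HCs were 140 of its 3901 cells, against 162 of 1247 and 237 of 2813. Within HCs (1758 against 1270 and 1410 CPM), LPsCs (466 against 309 and 280 CPM) and KO (78.5 against 41.4 and 71.1 CPM), Hes6 was highest in replicate 3. The Hes1 difference was present within a single class too, since KO cells had 171, 176 and 2770 CPM of Hes1. Other genes that moved with it, picked after their values were seen, were Nrarp, a Notch target that feeds back on the pathway (307 against 43.5 and 76.7 CPM over all cells), Ctgf (616 against 73.3 and 75.5 CPM), and the immediate early genes Fos (130 against 638 and 737 CPM) and Egr1 (52.4 against 364 and 294 CPM). In all, 257 genes of that library differed by more than 2-fold from the mean of the others, against 43 and 40 genes for replicates 1 and 2. At P1 replicates 1 and 4 stood apart too, with 403 and 436 genes past 2-fold against 39 and 56 for replicates 2 and 3, and Hes1 at 313, 989, 757 and 1207 CPM over all cells of replicates 1 to 4. The E14 libraries differed from each other as well, with 23 genes past 2-fold over all cells. Hes1 was at 884 and 412 CPM and Hey1 at 143 and 69.7 CPM in E14 replicates 1 and 2. What set these libraries apart was not tested. Comparisons within an age were made inside each library, and values of the 6 genes without replicate 3 stand beside the called E16 differences and wherever a call was gained or lost.

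**Figure D1:**
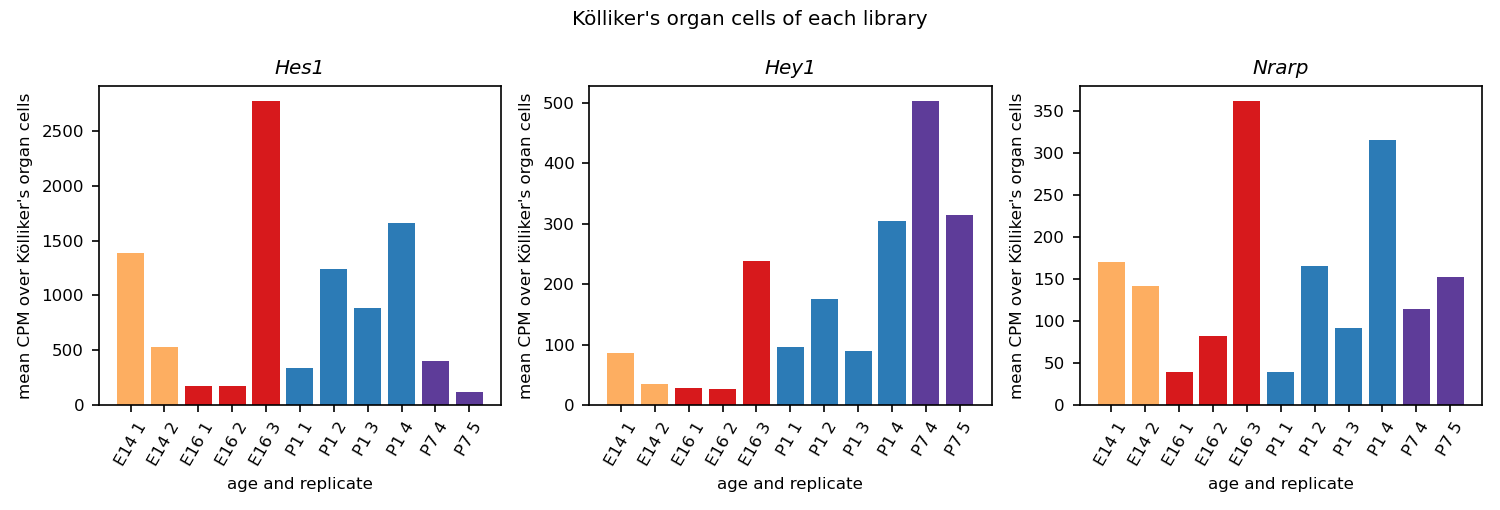
Mean CPM of Hes1, Hey1 and Nrarp over KO cells (y axis, linear) in each of the 11 libraries (x axis, age and replicate, 1 bar per library, no error bar because each bar is 1 library). Within E16, Hes1 reads 171, 176 and 2770 CPM and Nrarp reads 39.5, 82.5 and 361 CPM, so that replicate 3 is above the other E16 libraries for both, and at P7 Hey1 stands at 503 and 314 CPM.

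HCs were compared first with LPsCs or lateral SCs, called the neighbours below, since lateral inhibition by Notch is known to act between HCs and the cells around them. LPsCs are not the cells beside every HC. At E14, 11 and 18 of the HCs were of the IHC type by score and 0 of the OHC type. The study itself reports OHCs at E14, so the score may miss early ones. At E16, 56, 95 and 41 HCs scored as IHCs and 33, 74 and 83 as OHCs, and the rest had no type. At P1 OHCs outnumbered IHCs in each library (126, 107, 146 and 333 against 91, 50, 74 and 78). The make-up of the HC class by score thus changed with age and cannot be told apart from it here. By E16, 5 of the 6 genes were lower in HCs than in LPsCs and Hes6 was higher. At P1 the same held against lateral SCs, and at P7 the 5 were still lower while Hes6 no longer differed detectably. At E14 only Hes6 (higher) and Hey1 (lower) passed the test. Fgf20+ prosensory cells of E14, a further class outside the test, had 353 and 178 CPM of Hey1 and 152 and 233 CPM of Hes6, which put them on the same side of HCs as LPsCs were. The tests used limma on log2(CPM + 10), with library as a block and Benjamini-Hochberg adjustment over all genes tested, and each difference below is HC minus neighbour on that scale, ± its standard error. With 2 libraries at E14 and at P7, the spread of a gene is taken almost wholly from that of other genes, so that the small p-values at these ages rest on that assumption. The p-values measure the spread between libraries, as estimated largely from other genes at every age. For HCs against neighbours, other genes gave a median of 11.7 degrees of freedom at E16 and 10.3 at P1. The residual ones of a gene were 2 and 3. For OHCs against IHCs at P1 the numbers were 45.8 and 3.

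Hes5, the family member most tied to SCs of the organ of Corti, was close to absent at E14 and was far higher in the neighbours than in HCs from E16 on. HCs of E14 had 38.2 and 18.4 CPM and LPsCs 11.5 and 10.7 CPM (0.81 ± 0.64, adjusted p = 0.65). At E16 the HC libraries were at 2.52, 12.7 and 53.9 CPM and the LPsC libraries at 159, 305 and 705 CPM (-3.68 ± 0.25, adjusted p = 1.5e-07; without replicate 3, -3.77). HCs read above LPsCs in both E14 libraries, without passing. The 15 and 20 HCs of these libraries held 110529 and 137398 UMIs of all genes. Their Hes5 levels thus rest on few UMIs and give no order of the classes at E14. From E16 on HCs were below the neighbours with no overlap. At P1 the levels were 39.3, 32.5, 53.9 and 76.5 CPM in HCs against 1037, 1773, 1472 and 2383 CPM in lateral SCs (-4.78 ± 0.14, adjusted p = 6.8e-12), and at P7 they were 3.78 and 1.51 against 148 and 314 CPM (-4.17 ± 0.32, adjusted p = 3.8e-10).

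Hey1, a target of Notch and of other signals in the prosensory domain, was the repressor called lower in HCs at E14. E14 HCs had 148 and 93.2 CPM and LPsCs 452 and 279 CPM (-1.52 ± 0.31, adjusted p = 7.3e-05). At E16 the HC libraries held 55.7, 34.4 and 32.5 CPM and the LPsC libraries 474, 565 and 1062 CPM (-3.75 ± 0.27, adjusted p = 3.2e-07; without replicate 3, -3.29). Each library showed the difference. P1 HCs had 23.0, 14.1, 18.5 and 25.8 CPM against 581, 850, 694 and 928 CPM in lateral SCs (-4.66 ± 0.15, adjusted p = 1.2e-11), and P7 HCs 10.1 and 9.69 against 187 and 149 CPM (-3.15 ± 0.28, adjusted p = 4.0e-09).

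Hes1, the broadly expressed repressor of progenitors, did not differ detectably at E14, with 476 and 351 CPM in HCs and 445 and 261 CPM in LPsCs (0.25 ± 0.25, adjusted p = 0.74). It was lower in HCs from E16 on. E16 HCs had 29.4, 30.01 and 434 CPM and LPsCs 277, 197 and 2249 CPM, so that the groups overlap across libraries but not within any (-2.53 ± 0.19, adjusted p = 4.2e-07; without replicate 3, -2.62, adjusted p = 0.00030). At P1, HCs were at 26.6, 35.7, 36.8 and 57.7 CPM and lateral SCs at 299, 659, 469 and 489 CPM (-3.30 ± 0.15, adjusted p = 3.9e-10). P7 gave 37.0 and 13.0 against 398 and 269 CPM (-3.36 ± 0.24, adjusted p = 1.3e-10).

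Hey2 and Heyl, the other Hey genes, had far fewer UMIs than Hes5 and Hey1 in the same lateral SCs. For Hey2, E14 HCs had 22.5 and 7.22 CPM and LPsCs 67.7 and 39.8 CPM, a difference that did not pass (-1.40 ± 0.57, adjusted p = 0.17). E16 HCs were at 16.7, 0.775 and 3.60 CPM against 66.4, 28.5 and 45.7 CPM (-1.80 ± 0.36, adjusted p = 0.0026; without replicate 3, -1.68, adjusted p = 0.050). At P1 no HC library passed 4.48 CPM and no lateral SC library was under 32.5 CPM (-2.17 ± 0.19, adjusted p = 2.6e-07), and at P7 HCs held 4.94 and 0 CPM against 23.3 and 52.9 CPM (-1.90 ± 0.37, adjusted p = 0.00020). Heyl did not differ detectably at E14, at 21.1 and 13.7 CPM in HCs and 8.13 and 5.21 CPM in LPsCs (0.71 ± 0.72, adjusted p = 0.76), and was lower in HCs afterwards. HCs of E16 had 7.23, 6.12 and 5.32 CPM against 28.3, 41.2 and 21.8 CPM (-1.29 ± 0.37, adjusted p = 0.025), but the call was lost without replicate 2 (-1.10, adjusted p = 0.26) or replicate 3 (-1.41, adjusted p = 0.11). At P1 Heyl was at 5.74 to 19.5 CPM in HCs and 54.1 to 113 CPM in lateral SCs (-2.09 ± 0.15, adjusted p = 4.8e-08), and at P7 at 20.6 and 29.9 against 70.5 and 70.4 CPM (-1.20 ± 0.29, adjusted p = 0.0015).

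Hes6 ran opposite to the others at E16 and P1. HCs had 2380 and 1777 CPM at E14 and LPsCs 641 and 614 CPM (1.70 ± 0.16, adjusted p = 7.7e-25). E16 HCs had 1270, 1410 and 1758 CPM and LPsCs 309, 280 and 466 CPM (2.06 ± 0.11, adjusted p = 1.3e-08; without replicate 3, 2.15). No HC library overlapped a neighbour library at these ages. At P1 the levels were 611, 1215, 1532 and 836 CPM against 64.2, 137, 73.8 and 140 CPM (3.21 ± 0.19, adjusted p = 6.4e-09). By P7 HCs were down to 49.6 and 37.8 CPM, beside 31.6 and 19.2 CPM in lateral SCs (0.61 ± 0.30, adjusted p = 0.098).

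These counts have to be read against how many genes of any kind differed. Of all genes tested, 4.41% were called between HCs and LPsCs at E14 and 19.6% at E16, and 60.3% were called between HCs and lateral SCs at P1 and 48.3% at P7. At P1 and P7 a call is thus common to a large share of all genes, and the count alone says little. The P1 differences of Hes1, Hes5 and Hey1 ran from -3.30 to -4.78 and that of Hes6 was 3.21. Over all genes the median difference was -0.06, 0.02, 0.07 and 0.11 at the 4 ages. Such a median of signed values shows a general shift but not how far single genes spread.

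**Figure D2:**
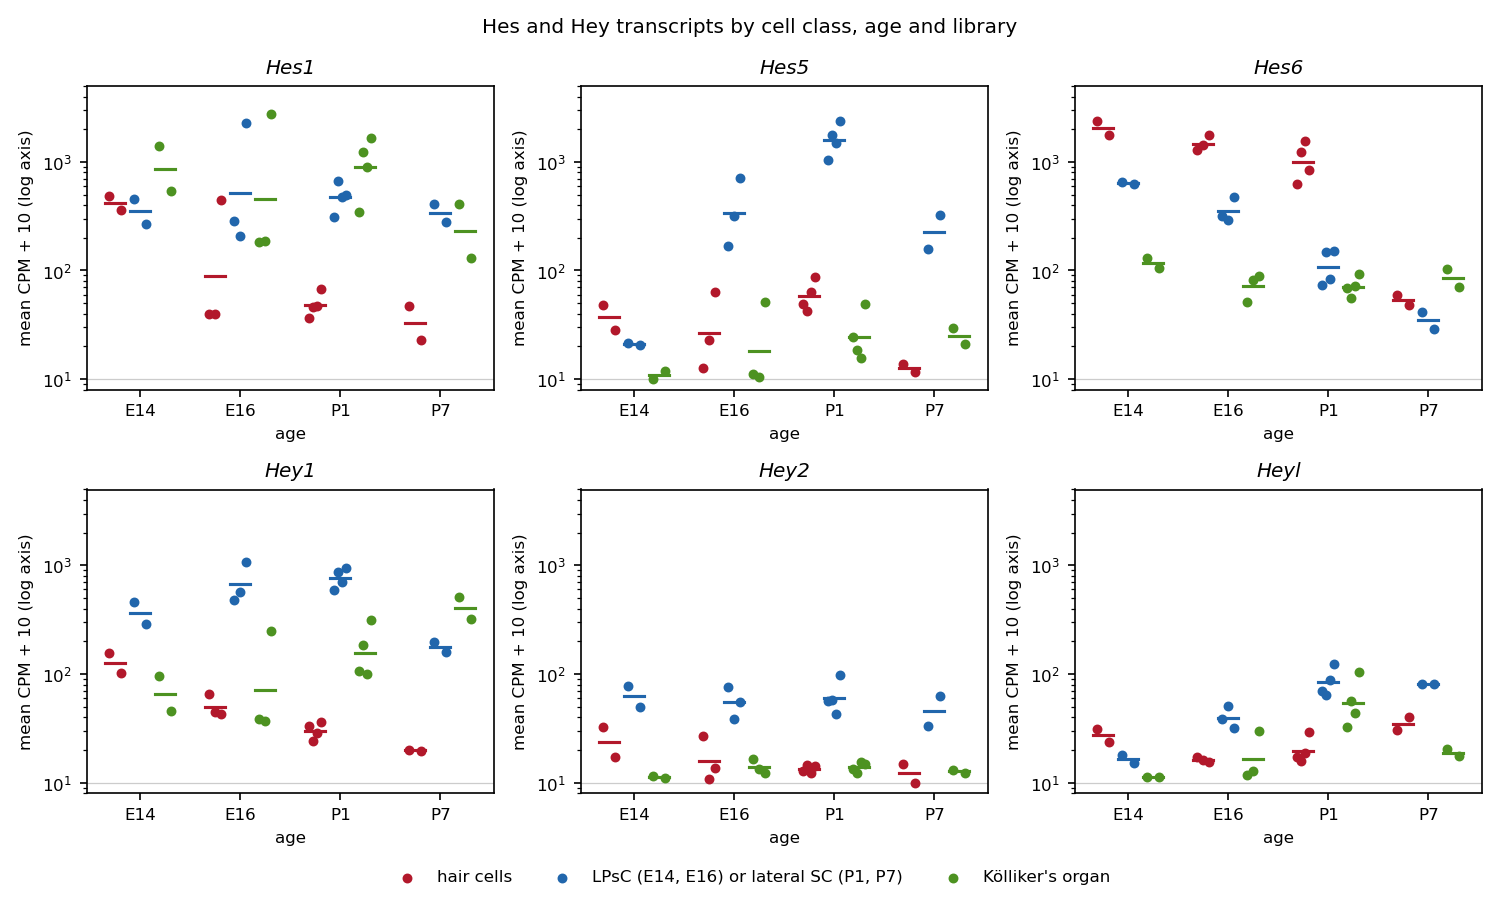
Mean CPM plus 10 (y axis, log scale) of each gene by age (x axis) in HCs, in LPsCs (E14 and E16) or lateral SCs (P1 and P7), and in KO cells, with 1 point per library and a bar at the mean of the log values; the grey line marks 0 CPM. Hes5 in the neighbours climbs from 10.7 and 11.5 CPM at E14 to 1037 to 2383 CPM at P1, and Hes6 in HCs drops to 37.8 and 49.6 CPM at P7.

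**Figure D3:**
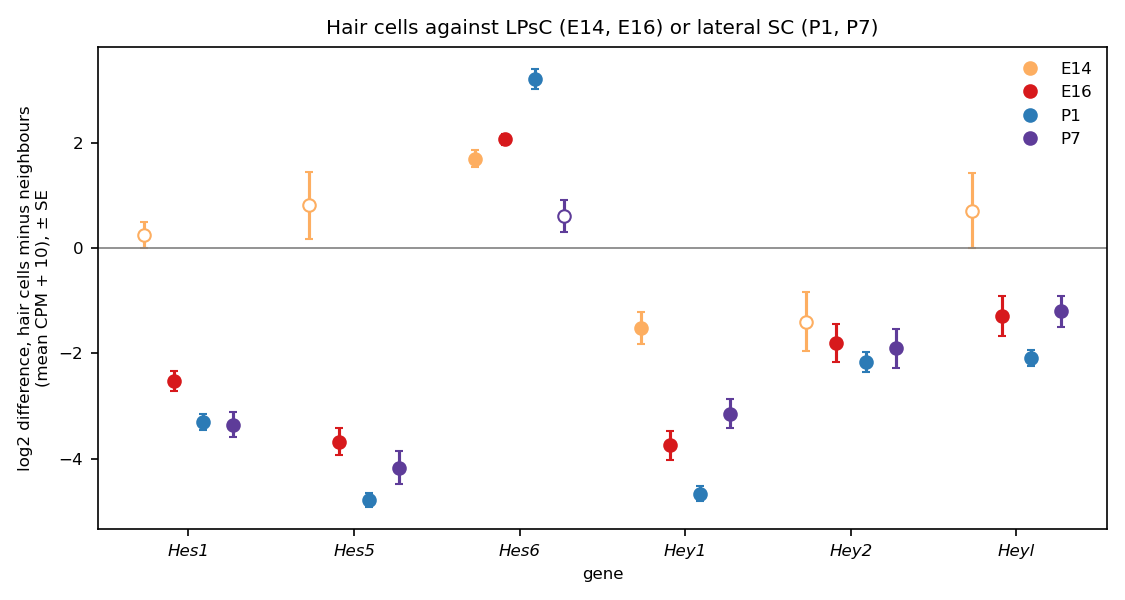
Difference in log2(CPM + 10) between HCs and their neighbours (y axis, points with standard errors) for the 6 genes (x axis) at the 4 ages (colours), where filled points passed an adjusted p of 0.05 and open points did not. Filled points of Hes1, Hes5, Hey1, Hey2 and Heyl are all below 0 and those of Hes6 all above it, and at E14 only Hes6 and Hey1 are filled.

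Whether the gap between HCs and neighbours changed from E16 to P1 was tested on the difference within each library. Hes5 had gaps of -3.75, -3.79 and -3.48 at E16 and of -4.41, -5.39, -4.54 and -4.79 at P1, without overlap (change -1.11 ± 0.24, limma's adjusted p = 0.0095; without E16 replicate 3, -1.01). For Hes6 they were 2.01, 2.29 and 1.89 at E16 and 3.07, 3.06, 4.20 and 2.50 at P1 (1.14 ± 0.29, adjusted p = 0.021; without E16 replicate 3, 1.06, adjusted p = 0.072). Atoh1, for comparison, widened as well (1.48 ± 0.24, adjusted p = 0.0016). The changes of Hes1 (-0.77 ± 0.25, adjusted p = 0.066), Hey1 (-0.92 ± 0.34, adjusted p = 0.11), Heyl (-0.79 ± 0.32, adjusted p = 0.13) and Hey2 (-0.37 ± 0.35, adjusted p = 0.55) did not pass, although Hey1 did without E16 replicate 3 (-1.38, adjusted p = 0.016). Of all genes tested, 10.2% were called. Both calls were lost with 1 in place of 10 CPM added before the log (Hes5 -0.47, adjusted p = 0.52; Hes6 1.23, adjusted p = 0.055), with no filter on low genes and with a stricter gate, and that of Hes6 with classes from Leiden clusters (0.38, adjusted p = 0.36). The neighbour class was gated with LPsC markers at E16 and with DC and IPC markers at P1, a change that cannot be told apart from age here. IPCs of E16 were gated as a class of their own and were not among the E16 neighbours.

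The second comparison set prosensory cells or lateral SCs beside KO, the neighbouring epithelium that makes no HCs in this tissue. Hes5 and Hey2 were higher on the sensory side wherever they were tested, and Hes1 was lower there at E14 and P1. Hey1 and Hes6 were higher there up to P1 and lower at P7. Of all genes tested, 19.5%, 12.2%, 43.1% and 36.5% were called at E14, E16, P1 and P7, and 4, 4, 6 and 6 of the 6 genes were. Hes5 and Heyl were under the level filter of a mean of 10 CPM at E14, and were not tested there.

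Hes5 in KO cells was at 0 and 1.89 CPM at E14, 1.21, 0.46 and 41.4 CPM at E16, 5.57 to 39.2 CPM at P1 and 19.8 and 10.9 CPM at P7. Sensory-side cells exceeded this by 4.21 ± 0.28 in log2 at E16 (adjusted p = 2.8e-07; without replicate 3, 4.41), 6.05 ± 0.18 at P1 (adjusted p = 3.7e-09) and 3.18 ± 0.24 at P7 (adjusted p = 9.9e-39). At P1 this was the largest difference of any of the 6 genes in any comparison between classes. Hey2 in KO did not pass 6.34 CPM in any library, and LPsCs or lateral SCs were higher by 2.46 ± 0.30 at E14 (adjusted p = 1.7e-14), 1.98 ± 0.36 at E16 (adjusted p = 0.0019; without replicate 3, 1.88), 2.11 ± 0.18 at P1 (adjusted p = 4.8e-06) and 1.85 ± 0.33 at P7 (adjusted p = 2.0e-07).

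Hes1 was strongest on the KO side early. KO cells had 1383 and 530 CPM at E14, above the LPsCs of the same library in both (LPsC minus KO -1.31 ± 0.10, adjusted p = 3.3e-36). At E16 the difference did not pass, with 171, 176 and 2770 CPM in KO and 277, 197 and 2249 CPM in LPsCs (0.17 ± 0.16, adjusted p = 0.56; without replicate 3, 0.41, adjusted p = 0.40). KO was again higher at P1, at 336, 1237, 888 and 1663 CPM (-0.93 ± 0.18, adjusted p = 0.0020), and was called lower at P7 (0.54 ± 0.17, adjusted p = 0.0069). That call rests on replicate 5, with 121 CPM in KO and 269 CPM in lateral SCs, since replicate 4 had 403 and 398 CPM.

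The side with more Hey1 differed by age, and a change of this gap between ages was not tested. KO cells had 85.9 and 35.2 CPM at E14, 28.2, 27.0 and 239 CPM at E16, 96.7, 175, 89.0 and 305 CPM at P1 and 503 and 314 CPM at P7. Sensory-side cells were above KO at E14 (2.47 ± 0.16, adjusted p = 9.4e-50), E16 (3.24 ± 0.28, adjusted p = 3.0e-06; without replicate 3, 3.81) and P1 (2.27 ± 0.16, adjusted p = 8.4e-07), and below it at P7 (-1.21 ± 0.17, adjusted p = 6.1e-11). So at P7 the Hey1 order of E14 to P1 was turned round in both libraries. From P1 to P7 Hey1 fell in lateral SCs (-2.11 ± 0.27, limma's adjusted p = 9.2e-05). Its KO difference did not pass (1.37 ± 0.43, adjusted p = 0.051). Hes6 went from LPsC excesses of 2.45 ± 0.13 at E14 (adjusted p = 3.3e-74) and 2.30 ± 0.21 at E16 (adjusted p = 4.6e-06; without replicate 3, 2.23) to 0.60 ± 0.18 at P1 (adjusted p = 0.021) and -1.29 ± 0.27 at P7 (adjusted p = 1.1e-05). From P1 to P7 Hes6 fell in lateral SCs (-1.63 ± 0.35, adjusted p = 0.0057), whereas KO did not differ detectably (0.26 ± 0.27, adjusted p = 0.57). The P1 call of Hes6 was lost without replicate 2 (0.34, adjusted p = 0.10) or replicate 4 (0.57, adjusted p = 0.068). Atoh1 was also called higher in LPsCs than in KO, by 3.27 ± 0.29 at E14 and 2.63 ± 0.41 at E16.

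Heyl was at 1.74, 2.91 and 19.6 CPM in E16 KO cells, and its LPsC excess did not pass (1.27 ± 0.42, adjusted p = 0.071), though it did without replicate 3 (1.85, adjusted p = 0.028) or replicate 1 (1.05, adjusted p = 0.022). It was higher in lateral SCs at P1 (0.64 ± 0.17, adjusted p = 0.0098), a call lost without replicate 3 (0.52, adjusted p = 0.066). At P7 KO was at 10.5 and 7.43 CPM and the excess was 2.09 ± 0.30 (adjusted p = 4.6e-11).

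Within the P1 organ of Corti the genes divided the supporting cell types. IPCs, which form the tunnel of Corti, had more Hes1 and Hes6 and less Hes5, Hey1 and Heyl than DCs, which hold the OHCs. Background for this comparison was 7.65% of genes called, against 5 of 6 here. The sharpest contrast was Heyl, at 7.14, 1.67, 4.35 and 52.2 CPM in IPCs and 99.5, 86.3, 109 and 147 CPM in DCs (-2.53 ± 0.27, limma's adjusted p = 4.0e-07). Replicate 4 was the high IPC library, and no IPC library reached the lowest DC library. Hes6 was at 104, 246, 125 and 238 CPM in IPCs and 40.9, 79.6, 64.8 and 114 CPM in DCs (1.13 ± 0.17, adjusted p = 4.5e-05). Atoh1 was called higher in IPCs as well (0.98 ± 0.27, adjusted p = 0.022), at 27.9 ± 20.3 against 8.50 ± 7.31 CPM (SD).

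Smaller differences separated the remaining genes. Hes1 was at 348, 733, 709 and 677 CPM in IPCs and 265, 591, 368 and 408 CPM in DCs (0.58 ± 0.11, adjusted p = 0.0013), and Hey1 at 342, 719, 473 and 668 against 755, 888, 788 and 1025 CPM (-0.69 ± 0.11, adjusted p = 0.00013). Both differences were present in each of the 4 libraries. Hes5 was at 656, 1170, 1622 and 1741 CPM in IPCs and 1264, 1960, 1488 and 2463 CPM in DCs (-0.51 ± 0.11, adjusted p = 0.0039), with replicate 3 going the other way, and the call was lost without replicate 1 (-0.37, adjusted p = 0.069) or replicate 2 (-0.44, adjusted p = 0.072). Hey2 did not pass (0.16 ± 0.21, adjusted p = 0.77).

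IPhCs, on the medial side, had less Hes5, Hes6, Hey1 and Hey2 than lateral SCs, where 23.4% of all genes were called. Hes5 was at 597, 852, 272 and 1545 CPM in IPhCs (-1.21 ± 0.16, adjusted p = 9.7e-07), Hey1 at 489, 305, 328 and 597 CPM (-0.85 ± 0.13, adjusted p = 9.5e-06) and Hey2 at 18.1, 2.20, 10.8 and 25.6 CPM (-1.43 ± 0.23, adjusted p = 2.3e-05). The Hes6 difference was -0.55 ± 0.17 (adjusted p = 0.020) and was lost without replicate 2 (-0.35, adjusted p = 0.21) or replicate 4 (-0.51, adjusted p = 0.086). Hes1 (0.04 ± 0.13, adjusted p = 0.87) and Heyl (0.16 ± 0.17, adjusted p = 0.55) did not pass, and Heyl in IPhCs, at 48.2 to 113 CPM, reached the range of DCs. IPhCs were gated on 3 markers alone.

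OHCs had more Hes6 than IHCs, 649, 1354, 1722 and 897 against 550, 857, 1138 and 596 CPM (0.52 ± 0.07, adjusted p = 1.1e-07), higher in each of the 4 libraries. Hes5 was also higher in OHCs, at 48.3, 31.6, 41.9 and 75.7 against 28.2, 24.6, 15.2 and 18.9 CPM (0.87 ± 0.21, adjusted p = 0.0039), but the call was lost without replicate 4 (0.64, adjusted p = 0.13), and these levels are a small part of the 1264 CPM or more found in DCs, the cells that touch OHCs. Whether RNA from DCs contributed to it was not tested. Hes1 (-0.17 ± 0.21, adjusted p = 0.74), Hey1 (0.07 ± 0.23, adjusted p = 0.92) and Heyl (-0.25 ± 0.24, adjusted p = 0.63) did not pass, Hey2 was under the filter, and 7.55% of all genes were called.

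The order of the P1 classes differed by gene. For Hes5 it ran from DCs (1794 ± 532 CPM, SD, n = 4) and IPCs (1297 ± 494) to IPhCs (816 ± 541), neighbours that overlap in their libraries, and then with a gap to HCs (50.5 ± 19.5) and KO (16.9 ± 15.3). Hey1 led in DCs (864 ± 121), clear of IPCs (551 ± 175), Hensen's cells (474 ± 163), which lie lateral to the DCs, and IPhCs (430 ± 138). The last 3 of these classes overlap. Hes1 had its only gap above HCs (39.2 ± 13.1), while KO (1031 ± 561), interdental cells (825 ± 418), IPCs (617 ± 181), Hensen's cells (514 ± 346), IPhCs (500.4 ± 186) and DCs (408 ± 136) each overlapped the next. Hes6 stood apart in HCs (1049 ± 408), above IPCs (178 ± 74.2), and the rest were at 47.3 to 74.7 CPM on average.

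**Figure D4:**
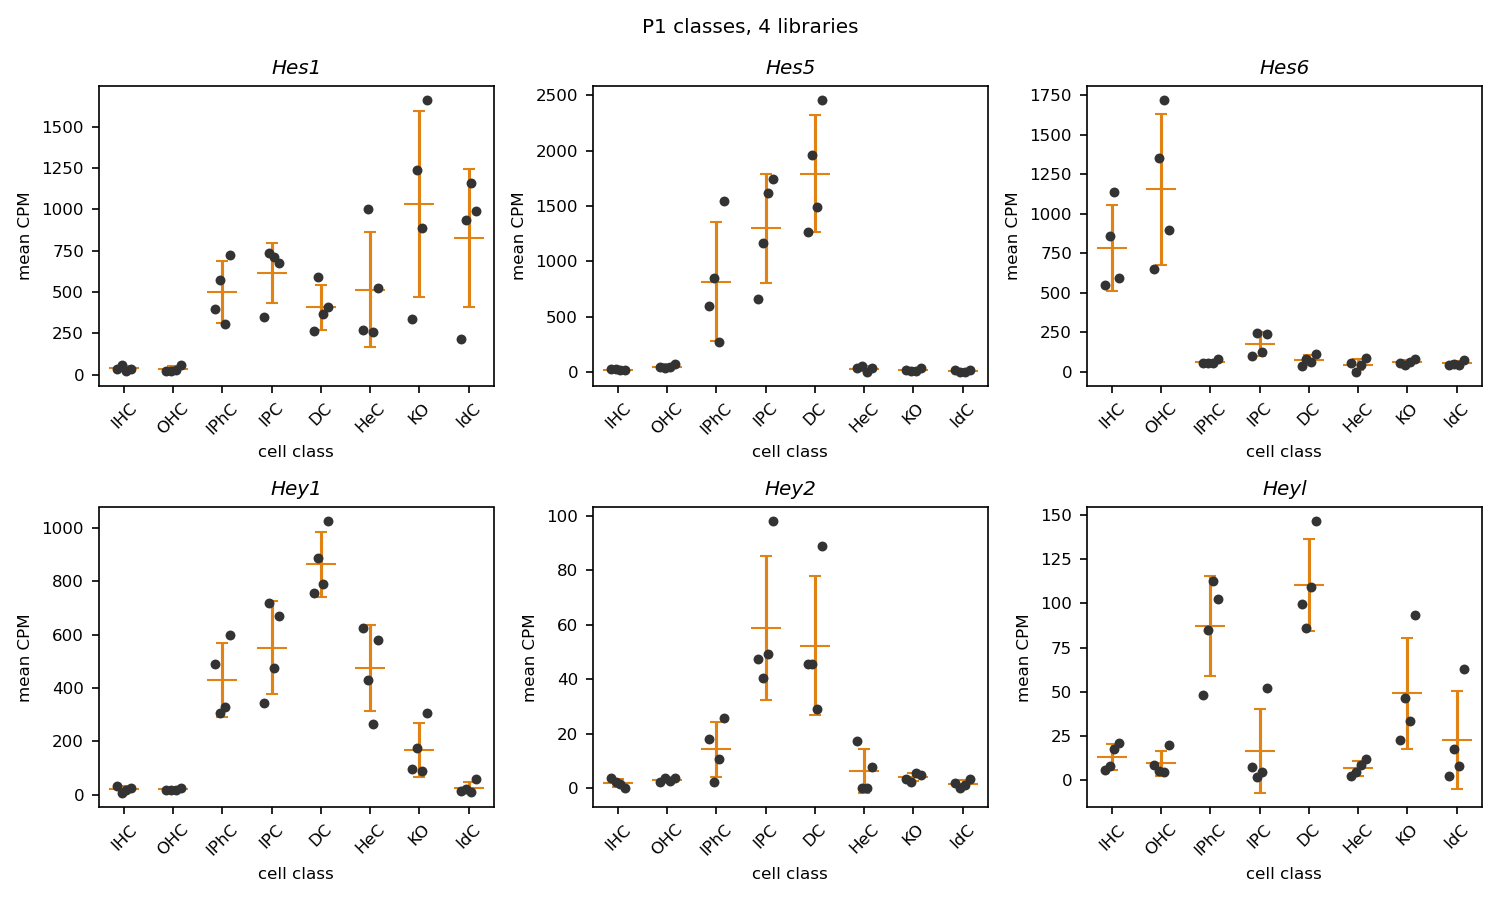
Mean CPM (y axis, linear, a scale for each gene) of the 6 genes in 8 P1 classes (x axis; HeC, Hensen's cells; IdC, interdental cells), with 1 point per library (4 libraries) and the mean with its SD in orange. Hes5 reaches 1264 CPM or more in every DC library and at most 76 CPM in IHCs and OHCs. Heyl separates DCs (110 ± 25.9) from IPCs (16.3 ± 24.0). IPhCs (87.2 ± 28.4) overlap IPCs, with a lowest library of 48.2 CPM against a highest IPC library of 52.2 CPM.

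Since the repressors are known to act on Atoh1, HCs with an Atoh1 UMI were compared with HCs without one. At P1 only Hes6 passed, at 624, 1273, 1559 and 900 CPM in cells with Atoh1 and 532, 693, 1188 and 492 CPM in those without (0.59 ± 0.11, limma's adjusted p = 0.0014), higher in each of the 4 libraries, with 2.75% of all genes called. The call was lost without replicate 2 (0.49, adjusted p = 0.11), with 1 CPM added before the log (adjusted p = 0.076) and with no filter on low genes (adjusted p = 0.21). Cells without an Atoh1 UMI were few, 31, 16, 16 and 68, and shallower, with medians of 8891, 7081.5, 5130.5 and 4486.5 UMIs against 9662, 7411, 8362 and 5463, and the part of depth in this difference was not tested. Hes1 (0.68 ± 0.36, adjusted p = 0.40), Hes5 (0.31 ± 0.38, adjusted p = 0.78) and Hey1 (0.37 ± 0.38, adjusted p = 0.73) did not pass. Sox2, a marker of HC progenitors, was called higher in cells with Atoh1 too (1.40 ± 0.36, adjusted p = 0.024), as were Id1 and Id2. At E16 the split could be made in replicates 1 and 2 only, and limma called 0 of Hes1, Hes6 and Hey1 (Hey1, 1 of 3, had an unadjusted p under 0.05; the sole gene called was Atoh1 itself, 0.0113% of those tested).

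Across ages, the HC and SC sides were followed separately. These comparisons are between libraries and have no block. In HCs the shares of all genes called were 7.93% from E14 to E16, 16.2% from E16 to P1 and 21% from P1 to P7. Hes1 went from 476 and 351 CPM at E14 to 29.4, 30.01 and 434 CPM at E16 (-2.24 ± 0.77, adjusted p = 0.097), and passed once replicate 3 of E16 was left out (-3.40, adjusted p = 0.00042). Hey1 fell (-1.36 ± 0.37, adjusted p = 0.041), a call that was lost without E14 replicate 1 or any 1 of the 3 E16 replicates (-1.05 to -1.55, adjusted p = 0.092 to 0.20). From E16 to P1 limma called 0 of the 4 members tested (Hes5 and Hey1, 2 of 4, had an unadjusted p under 0.05), and Hes5 was called without E16 replicate 3 (1.79, adjusted p = 0.0039, against 1.15 and adjusted p = 0.076 with it).

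From P1 to P7 the HC levels of Hes6 fell by 4.23 ± 0.33 in log2 (adjusted p = 1.4e-06) and those of Hes5 fell by 2.21 ± 0.32 (adjusted p = 0.00018). Atoh1 fell by 4.33 ± 0.29 over the same interval (adjusted p = 2.6e-07). Hes1 (-0.54, adjusted p = 0.29), Hey1 (-0.59, adjusted p = 0.13) and Heyl (0.83, adjusted p = 0.062) did not pass, although Heyl did without P1 replicate 4 (1.02, adjusted p = 0.0087).

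On the side of the neighbours, Hes5 rose and then fell. It gained 3.99 ± 0.47 in log2 from E14 to E16 LPsCs (adjusted p = 0.00025; without E16 replicate 3, 3.45), another 2.25 ± 0.38 from E16 LPsCs to P1 lateral SCs (adjusted p = 0.0025; without E16 replicate 3, 2.80) and fell by 2.82 ± 0.34 to P7 (adjusted p = 6.5e-05). The steps of Hes6 were -0.85 (adjusted p = 0.11, but called without E16 replicate 3 at -1.07 and adjusted p = 0.0059), -1.71 ± 0.31 (adjusted p = 0.0043; without E16 replicate 3, -1.49) and -1.63 ± 0.35 (adjusted p = 0.0057), the last lost without P7 replicate 5 (-1.38, adjusted p = 0.13). Atoh1 also fell from E16 LPsCs to P1 lateral SCs (-1.92 ± 0.42, limma's adjusted p = 0.017). It did not differ detectably from E14 to E16 LPsCs (-0.23 ± 0.44, adjusted p = 0.86). Hey1 fell from P1 to P7 by 2.11 ± 0.27 (adjusted p = 9.2e-05). Hes1, Hey2 and Heyl did not pass in any of these steps. Of all genes, 2.34%, 3.16% and 11.8% were called in the 3 steps, and the E16 to P1 step carries the change of gate given above. IPCs were a class outside the LPsCs at E16 (10, 44 and 57 cells) and part of the lateral SCs at P1. In IPCs alone Hes6 was at 189 ± 36.1 CPM at E16 (SD, n = 3) and 178 ± 74.2 CPM at P1 (n = 4). Atoh1 in IPCs was at 23.8 ± 21.8 and 27.9 ± 20.3 CPM, and Hes5 at 252 ± 216 and 1297 ± 494 CPM. A step within IPCs was not tested.

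KO changes turned on single libraries. With all libraries limma called 0 of the 3 members tested from E14 to E16 (10.9% of genes called; 1 of 3, Hes6, had an unadjusted p under 0.05), and without E16 replicate 3 Hes1 (-2.24, adjusted p = 1.6e-05), Hes6 (-0.86, adjusted p = 0.0071) and Hey1 (-0.81, adjusted p = 0.042) were lower at E16. From E16 to P1 Heyl rose (1.70 ± 0.39, adjusted p = 0.021, with 6.47% of genes called), a call kept without E16 replicate 3 (2.12) and lost without E16 replicate 1 (adjusted p = 0.16) or 2 (adjusted p = 0.13). Without E16 replicate 3 that step also called Hes1 (2.29, adjusted p = 0.016) and Hey1 (2.07, adjusted p = 0.013). From P1 to P7 Hes1 (-1.95 ± 0.59, adjusted p = 0.043) and Heyl (-1.505 ± 0.40, adjusted p = 0.024) fell, with 18.6% of genes called, and both calls were lost without either P7 library (adjusted p = 0.061 to 0.42). The Hes1 call was also lost without P1 replicate 2, 3 or 4 (adjusted p = 0.064 to 0.082). The Hey1 difference of 1.37 did not pass (adjusted p = 0.051), and did without P1 replicate 4 (1.70, adjusted p = 0.0066).

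Levels averaged over a class do not say how many cells hold a transcript, so every cell was thinned at random to 1500 UMIs and the cells with a UMI of a gene were counted. Intervals are exact binomial (Clopper-Pearson) at 95% and reflect counting error alone. Where 0 cells of a library held a UMI, here and below, the upper limit given is instead 3 divided by the number of cells. Hes5 was found in 69.4% of P1 lateral SCs (66.3 to 72.4), 29.6% of E16 LPsCs (24.4 to 35.3) and 11.4% of P7 lateral SCs (6.89 to 17.4). Before thinning the shares were 87.8%, 40.1% and 20.9%. KO cells, in which Hes5 was low, gave 2.03%, 1.87% and 1.39% at E16, P1 and P7, and HCs 2.04%, 4.06% and 0.803%. At E16 the KO share came almost wholly from replicate 3, at 3.68% against 0.139% in replicate 2 and 0 of 235 cells in replicate 1, which allows a share of up to 1.28%, and HCs were at 4.29% in replicate 3, 2.11% in replicate 2 and 0 of 162 cells in replicate 1 (up to 1.85%). At P1 the HC share was 5.45%, 2.52%, 3.59% and 4.16% in replicates 1 to 4 and the KO share 2.35%, 1.25%, 0.510% and 2.81%, higher in HCs in each library, with no test made. Median depths before thinning were 6674 UMIs in P1 HCs, 5734 in lateral SCs and 4936 in KO.

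Hes6 was detected in 85.7% of E14 HCs (69.7 to 95.2), 80.5% at E16, 71.2% at P1 and 4.82% at P7 (2.51 to 8.27), the last below the 8.53% of P7 KO cells (6.24 to 11.3). At the mean of 43.7 CPM in P7 HCs, most cells would show no UMI at this depth even if all expressed the gene alike, so that the P7 share does not say how many cells express Hes6. Hey1 was found in 40.7%, 56.8%, 65.0% and 17.1% of LPsCs or lateral SCs at the 4 ages, and in 7.41%, 17.2%, 18.7% and 41.1% of KO cells. Hes1 was found in 34.3% of E14 HCs (19.1 to 52.2) and in 8.53%, 5.41% and 3.21% at the later ages. The libraries behind the later HC values were far apart, at 1.85%, 4.64% and 22.9% in E16 replicates 1 to 3, 1.89% to 7.62% at P1 and 6.03% and 0.752% at P7, so that no order of the later ages can be read from them. In KO cells its share was 57.2%, 58.5%, 61.3% and 21.4% at the 4 ages over pooled cells. The E16 value was carried by replicate 3, since the KO shares of Hes1 were 19.6%, 17.7% and 93.2% in E16 replicates 1 to 3, and those of P1 replicates 1 to 4 were 30.2%, 76.3%, 67.3% and 83.5%. The same E16 libraries gave 3.404%, 4.16% and 28.6% for Hey1 in KO and 11.5%, 23.9% and 48.4% for Hes5 in LPsCs, so that pooled E16 shares depend on how many cells each library gave. Hey2 was in at most 8.29% of any of these classes and Heyl in at most 12.0%, so that most cells cannot be called positive or negative for them at this depth.

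**Figure D5:**
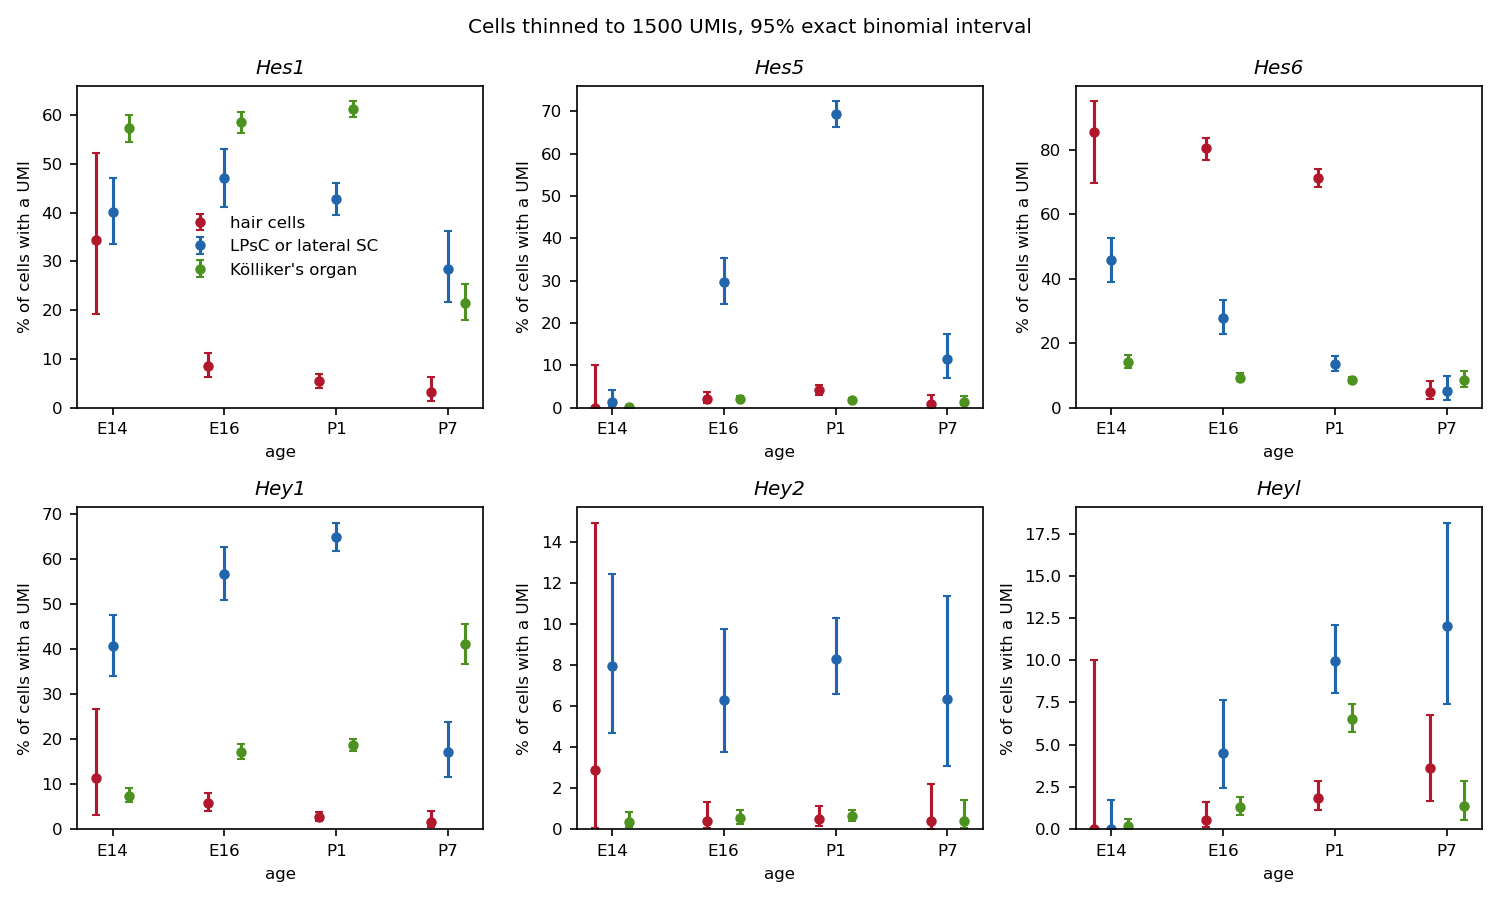
Percent of cells with at least 1 UMI of each gene after thinning to 1500 UMIs (y axis) by age (x axis) in HCs, LPsCs or lateral SCs, and KO cells, over the pooled cells of all libraries of an age, with exact 95% intervals. Hes5 peaks at 69.4% of P1 lateral SCs, Hes6 in HCs drops from 71.2% at P1 to 4.82% at P7, and Hey1 in KO reaches 41.1% at P7.

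Joint detection of Hes1, Hes5 and Hey1 was counted in the same cells. Of P1 lateral SCs thinned to 1500 UMIs, 7.62% had no UMI of Hes1, Hes5 or Hey1, 23.0% held all of them, and 47.4% held both Hes5 and Hey1, from 32.2% to 60.2% by library. The product of the single shares of Hes5 and Hey1 is 45.1%, so that the joint share is close to what the single shares give. In P1 HCs the joint share of Hes5 and Hey1 was 0.676%, against a product of 0.110%. By library it was 0.455%, 0, 0 and 1.39% of the 220, 159, 223 and 433 HCs in replicates 1 to 4, so that it rests on few cells. Doublets were hardly screened in replicate 4, and their part in this share was not tested. In IPhCs 23.7% had a UMI of none. Among E16 LPsCs 22.0% had a UMI of none and 14.3% of all, but both shares differed by library. The first was 30.8% and 33.1% in replicates 1 and 2 and 0 of 93 cells in replicate 3 (up to 3.23%), and the second was 1.92%, 4.93% and 35.5% in replicates 1 to 3. No UMI of the 3 was found in 85.5%, 89.6% and 94.4% of HCs at E16, P1 and P7, against 57.1% of the 35 HCs at E14. With means of 39.2, 50.5 and 20.4 CPM of Hes1, Hes5 and Hey1 in P1 HCs, most cells would show none at 1500 UMIs even if all expressed them alike, so that these shares do not count cells without the transcripts.

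The rest of the Notch pathway was read from lists of other genes in the same comparison of HCs with their neighbours, against the same 4.41%, 19.6%, 60.3% and 48.3% of all genes called. Ligands were mostly on the HC side. Of 4, 4, 5 and 3 ligands tested at E14, E16, P1 and P7, 3, 3, 4 and 2 were higher in HCs, and Jag1, which is carried by prosensory and supporting cells, was the one lower, from E16 on (-2.57 at E16, -3.51 at P1 and -2.05 at P7). Dll3 (2.75 at E14 and 3.64 at E16) and Jag2 (2.22, 2.62, 3.93 and 2.22 at the 4 ages) had the largest excess among ligands. The list medians were 2.15, 2.56, 2.90 and 1.70, and the medians over all genes given above show a shift but not a spread.

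Receptors were on the other side. At E14 limma called 0 of 3 (0 also at an unadjusted p under 0.05), and Notch1 and Notch3, the receptors with enough signal later, were both lower in HCs at E16 (-1.91 and -1.25), P1 (-3.19 and -1.55) and P7 (-0.85 and -1.16). Fringes, which add sugars to Notch and change its response to ligands, were split between the cell types, with 1, 1, 2 and 1 of the 3 tested called higher in HCs at the 4 ages and 0, 1, 1 and 1 called lower. Mfng was higher in HCs at each age (2.62, 2.68, 3.86 and 2.19), whereas Lfng was lower from E16 on (-2.96, -4.35 and -4.13) and did not pass at E14 (1.27, adjusted p = 0.077). The remaining member, Rfng, was higher in HCs at P1 (1.00) and did not pass at E14, E16 or P7 (-0.53, 0.51 and 0.42).

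The counts here are to be read beside the 4.41% (E14), 19.6% (E16), 60.3% (P1) and 48.3% (P7) of all genes called. Among the nuclear complex, its processing enzymes and feedback genes, 0 of 8 tested were called by limma at E14, 3 of 8 at E16, 1 of 10 at P1 and 5 of 9 at P7. No gene of that list had an unadjusted p under 0.05 at E14. Nrarp was lower in HCs at E16 (-1.51), P1 (-3.03) and P7 (-3.33). The Groucho co-repressors, partners of Hes proteins, gave 0 calls by limma at E14 and E16 (Tle1 at E14 was the 1 with an unadjusted p under 0.05) and 1 higher and 3 lower of 4 at P1 and at P7, led by Tle1 (-2.14 and -2.28). Id genes, which encode inhibitors of helix-loop-helix activators, were lower in HCs for 1 of 4 at E14 (Id2, -0.68) and for 4 of 4 at the later ages, with Id3 at -2.10 and -3.24 at E16 and P1 and Id2 at -3.12 at P7. Of the other Hes family genes, Bhlhe40 alone was high enough to be tested, at P7 (1.69, higher in HCs).

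The genes whose levels ran most like each repressor were found by Pearson's r over 105 points, each a class in a library, among 9202 genes. The points share libraries and ages, so that r is a description. Hes6 ran with Atoh1 (0.87), Slc52a3 (0.86) and the Notch ligand Dll3 (0.78), followed by Vwa5b2 and Ndufaf6 (0.78 both). Hes5 was nearest to Lfng (0.82), then to Fam83a (0.80), Slitrk6 (0.75) and the Wnt receptors Fzd9 and Fzd4 (0.75 both). Hey2 shared Slitrk6 (0.72) and Lfng (0.71) with it, and Cyp26b1, which breaks down retinoic acid, came next (0.69). The neighbours of Hey1 were Cdkn1b, the cell cycle inhibitor that marks the prosensory domain (0.79), Ramp3 (0.74) and Sall2 (0.74). Hes1 (Aldh2, 0.70; Csrp1, 0.67; Ctgf, 0.66) and Heyl (Rhov, 0.68; Scp2, 0.59) had looser matches. Fzd9 and Ramp3 are gate markers. Among the 6 genes Hes5 and Hey1 were closest (0.64) and Hes1 and Hes6 were unlike (-0.18).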

How the data were processed

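Single cells of the mouse cochlear duct floor were captured on a 10x Chromium. The authors aligned reads to mm10 and counted UMIs with Cell Ranger 2.1.1, then filtered and normalized the cells in Seurat 2.0, and the deposited values are natural logs, ln(1 + 10000 times a gene's share of a cell's UMIs). The values were turned back to CPM. Each cell was scored as the mean z-score over the markers of a class, and joined the leading class at a score of 1 (0.3 for KO, 1.5 for IPhCs and other lists of 3 markers or fewer, 2.0 for a single marker) with a lead of 0.3. The limits were set after the scores were seen, the members and gene lists with earlier results of these data known, and most markers come from the study's own tables on these libraries. No doublets were removed in the main analysis. Scanpy's Scrublet called 8 doublets in E14 cells, 61 in E16 cells, 159 in P1 cells and 26 in P7 cells. The share was 0.0355% to 0.241% in both E14 libraries, in E16 replicates 1 and 2 and in P1 replicate 4, so that doublets were hardly screened there. In all, 11, 29, 84 and 9 barcodes occurred in more than 1 library of an age.

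The mean CPM of a class in a library (5 cells or more) entered limma (version 3.58.1, R 4.3.3, mean trend) as log2(CPM + 10), and genes averaging under 10 CPM were dropped. Adding 10 CPM understates the change of low genes. Library was a block within an age. P-values were adjusted by Benjamini-Hochberg over all genes tested, with a threshold of 0.05. Named genes were the 6 members, Atoh1 and Sox2, the 2 called genes with the largest difference in each list, and the 5 genes most correlated with each member (classes of at least 10 cells), of which the text gives the nearest. The fits of HCs against neighbours were also run on simulated counts. There the library effect was the same in both classes, so the run does not probe how a class difference varies between libraries. No comparison between ages was simulated. Alternatives were an added 1 CPM, no filter, a stricter gate, Leiden clusters (scanpy 1.11.5), summed UMIs, doublets removed, the replicate number as a block or none, and leaving out each library. Total UMIs ran from 3828399 to 23523802 per library, and precision for low genes is set by the UMIs of a class. RefSeq promoters of Hes1, Hey1 and Heyl were not used here.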

Additional observations from a re-analysis of the deposited data

Results flagged for a closer look

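The gap between HCs and their neighbours differed between ages by a test of the difference itself for Hes5 (P1 minus E16, -1.11 in log2, limma's adjusted p = 0.0095) and for Hes6 (1.14, adjusted p = 0.021). Both calls were lost with 1 CPM added before the log (Hes5 -0.47), with no filter on low genes and with the stricter gate, and the neighbours were gated as LPsCs at E16 and as DCs and IPCs at P1.

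In 48 groups of 4 P1 libraries, 1 gene in 1 class each, 2 had a library far from the rest by Dixon's test, and chance flags about 1 group in 20. Hes1 in P1 IPCs was lowest in replicate 1, at 348 CPM against 677 to 733 CPM in the others. Replicate 1 was also the lowest P1 library for Hes1 in HCs (26.6 CPM), in lateral SCs (299 CPM), in KO and over all cells. Hes6 in P1 IPhCs was highest in replicate 4, at 83.8 CPM against 55.7 to 59.6 CPM.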

How the results depend on the processing

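No called member changed direction under any alternative. Of the recomputed differences of called members, 402 kept and 46 lost their call under other settings, and 187 kept and 26 lost it when 1 library was left out. The counts below are of the 6 members called, the value as reported first. With classes from Leiden clusters the count was 4 in place of 2 for HCs against LPsCs at E14, 3 in place of 1 for LPsCs from E14 to E16, and 4 in place of 2 for the change of the HC gap. For the steps in HCs from E16 to P1 and in KO from E14 to E16 it was 1 in place of 0, for KO from E16 to P1 it was 0 in place of 1 and for KO from P1 to P7 it was 1 in place of 2. With an added 1 CPM the Hes6 call of the P1 Atoh1 split, the HC call from E14 to E16 and both calls of the change of the HC gap were lost (0 each). With no filter on low genes, 0 were left for these and for both later KO steps, and 1 for OHCs against IHCs and for the E16 to P1 step of the neighbours. The stricter gate left 1, 1 and 0 for OHCs against IHCs, the latter step and the change of the HC gap. Summed UMIs gave 1 for KO from P1 to P7, and removing doublets gave 1 for HCs from E16 to P1. The causes were not tested.

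Without the replicate block the counts within an age fell to 1 of 2 (E14 HCs against LPsCs), 3 of 6 (P1 lateral SCs against KO), 1 of 5 (IPCs against DCs), 2 of 4 (IPhCs), 0 of 2 (OHCs against IHCs) and 0 of 1 (P1 Atoh1 split), where pairing comes from the shared library. Between ages a shared number does not pair libraries (correlations of deviations for HCs from E16 to P1 of 0.065, -0.12 and 0.040), and with the number as a replicate block the counts were 3 and 1 for HCs from E14 to E16 and from E16 to P1, 2 for LPsCs and 3 for KO from E14 to E16. No paired fit was made from P1 to P7, which share 1 number. Leaving out 1 library gave counts of 1 to 2 for OHCs against IHCs, 0 to 1 for the P1 Atoh1 split, 0 to 2 and 0 to 1 for the first and second HC steps, 1 to 2 for the first step of the neighbours and 0 to 3, 0 to 3 and 0 to 2 for the KO steps. At E14 and P7 leaving out a library left 1, and gave no value within the age.

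Counts over all genes moved by over 1.5 times as well. Without the block they went from 381 to 160 (E14 HCs against LPsCs), 1708 to 882 and 1061 to 674 (LPsCs against KO at E14 and E16), 3682 to 1518 (P1), 648 to 133 (IPCs), 1990 to 693 (IPhCs), 671 to 67 (OHCs) and 244 to 2 (P1 Atoh1 split). With no filter they went from 1061 to 565 (LPsCs against KO at E16), 648 to 282 (IPCs), 1990 to 1317 (IPhCs), 671 to 298 (OHCs), 244 to 5 (P1 Atoh1 split, 40 with an added 1 CPM) and 931 to 471 (change of the HC gap, 523 with an added 1 CPM and 421 with the stricter gate). The stricter gate gave 1002 in place of 1734 and Leiden clusters 609 in place of 381 for HCs against LPsCs at E16 and E14, and with the replicate block KO from E14 to E16 went from 938 to 2673. For the steps between ages, no filter and Leiden clusters gave 381 and 1147 in place of 691 (HCs from E14 to E16), 88 and 641 in place of 201 (LPsCs) and 541 and 1523 in place of 938 (KO). No filter also gave 91 in place of 269 for the second step of the neighbours and 322 in place of 546 for that of KO. Leaving out 1 library gave as few as 97, 80 and 143 for these first steps in HCs, LPsCs and KO, and 717, 345 and 458 in place of 1896, 1010 and 1526 from P1 to P7. At E14 the 15 and 20 HCs limit what low genes such as Hes5 can show, and Hey2 and Heyl are near the detection limit in most classes.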
